A study of Homo sapiens with 2 samples.

Results

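The genes described here encode SR proteins, hnRNP proteins, the SF3A and SF3B subunits of the U2 snRNP and the U2AF proteins. They were chosen by symbol, as every gene whose name starts with SRSF or U2AF and a digit, with HNRNP, or with SF3A or SF3B and a digit, which gave 50 of the 19607 genes in the deposited table. These are 12 SR protein genes, 25 hnRNP genes, 9 genes of SF3A and SF3B subunits and 4 U2AF genes. RNA was sequenced from CWR22rv1, a human prostate cancer (CaP) cell line, as 1 library of Akt1/2 DKO cells, in which CRISPR/Cas9 guides had been directed against Akt1 and Akt2, and 1 library of control cells labelled wild type. Knockout cells were isolated as single clones after puromycin selection, and the labels do not name the clone that was sequenced or any treatment of the control cells. With 1 library per condition, an effect of the knockout and a difference between a clone and the control cells cannot be told apart, and no difference below has a replicate check.

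Pre-mRNA splicing starts when the U1 snRNP binds the start of an intron and U2AF and the U2 snRNP bind its end and branch point. SR proteins mostly bind exonic enhancers and recruit these factors, whereas hnRNP proteins coat nascent RNA and often hold splice sites back, so that the balance between them shapes alternative splicing. Akt is known to signal to the kinases that phosphorylate SR proteins. The question is whether the mRNA of these factors differed between Akt1/2 DKO and control cells. Protein amounts, phosphorylation and exon use were not analysed here.

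Depth was similar, with 9970820 estimated reads for control cells and 10718650 for Akt1/2 DKO cells. Fold changes divide Akt1/2 DKO by control after scaling for library size by TMM, a trimmed mean of gene ratios, and their 95% intervals are exact (Clopper-Pearson) and cover counting error only. A gene was called different when the fold reached 1.5 in either direction, provided that both libraries together held at least 10 of its reads. AKT1 went from 2645 reads in control to 591 in Akt1/2 DKO and AKT2 from 2362 to 667, which goes with the labels. All 9 prostate luminal markers listed (KLK2 and KLK3 among them) had at least 10 reads in both libraries, with summed FPKM of 905 in control and 1485 in Akt1/2 DKO. The 3 basal markers were at 0 to 2 reads.

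The promoters were compared first, to show what the genes share in sequence. RefSeq sequences (GRCh38.p14) matched 45 of the 50 genes, and the 250 bases upstream of the first listed start were searched on both strands for 6 motifs. These were the ETS core CCGGAAG, the Sp1 GC box GGGCGG, the CCAAT box CCAAT, the TATA box TATAAA, the FOXO site GTAAACA and the core site of NRF1. The 4 upstream sequences below belong to SRSF12, the gene with the largest difference, to SRSF8, the SR gene with the largest positive difference, to HNRNPA2B1, the most abundant gene with a matched promoter, and to SF3B6, which holds the most ETS cores. They are written 5′ to 3′ on the minus strand of chr6:89118072-89118321, the plus strand of chr11:95066627-95066876, the minus strand of chr7:26200747-26200996 and the minus strand of chr2:24076327-24076576, and capitals mark any of the 6 motifs or its reverse complement.
SRSF12: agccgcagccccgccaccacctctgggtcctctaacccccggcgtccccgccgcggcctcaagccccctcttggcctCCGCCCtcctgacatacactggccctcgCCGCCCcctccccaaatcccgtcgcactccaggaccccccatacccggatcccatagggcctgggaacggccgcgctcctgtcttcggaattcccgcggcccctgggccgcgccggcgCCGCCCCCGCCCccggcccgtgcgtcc
SRSF8: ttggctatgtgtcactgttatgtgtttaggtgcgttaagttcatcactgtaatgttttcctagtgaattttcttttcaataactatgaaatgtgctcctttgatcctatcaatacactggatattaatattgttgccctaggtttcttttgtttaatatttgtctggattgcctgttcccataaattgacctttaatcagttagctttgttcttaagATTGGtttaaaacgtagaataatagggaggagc
HNRNPA2B1: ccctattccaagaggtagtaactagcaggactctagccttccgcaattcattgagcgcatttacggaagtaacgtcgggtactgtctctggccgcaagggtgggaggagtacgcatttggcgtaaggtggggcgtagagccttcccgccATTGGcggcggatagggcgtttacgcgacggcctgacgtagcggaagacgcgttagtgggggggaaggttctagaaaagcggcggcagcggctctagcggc
SF3B6: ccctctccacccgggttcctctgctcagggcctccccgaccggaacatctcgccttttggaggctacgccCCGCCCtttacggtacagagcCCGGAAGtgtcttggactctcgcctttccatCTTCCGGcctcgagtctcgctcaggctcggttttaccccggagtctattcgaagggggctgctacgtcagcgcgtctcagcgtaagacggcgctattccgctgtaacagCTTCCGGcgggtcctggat

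Most of these promoters were rich in CpG. The median over the 42 tested genes with a sequence was 25 CpG dinucleotides in 250 bases, beside 21 over 10358 promoters of all genes tested and 11 over all 27305 promoters. SRSF12 had 28 CpG, 4 GC boxes and a GC content of 75.6%, above the median GC content of 65.2%. SRSF8, a retroposed relative of SRSF2, had the fewest, with 2 CpG and a GC content of 33.6%. Among the other tested genes HNRNPH1 had 8, HNRNPC 12 and SRSF7 13. Other listed starts had 6, 24 and 28 CpG for HNRNPH1 and 23 for SRSF7, so the values of both depend on the start taken. An ETS core stood in 12 of the 42 promoters (28.6%), against 15.6% of the promoters of all genes tested and 19.9% of those with at least 1000 reads. The GC box was in 28 of 42 (66.7%, against 67.6% of all genes tested), the CCAAT box in 16 (38.1%, against 35.1%) and the TATA box in 5 (11.9%, against 5.22%). The FOXO site and the NRF1 core were in 0 of 42, where 1.95% of the promoters of all genes tested held each of them. A match is a description of letters only.

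The splicing factor mRNAs were abundant in both libraries and kept nearly the same order of levels. In all they held 148691 of the reads in control, 1.49% (95% exact binomial interval 1.48% to 1.5%), and 172737 in Akt1/2 DKO, 1.61% (1.60% to 1.62%). On the FPKM scale, which is per transcript length, 26 genes lay above 100 in control and 27 did in Akt1/2 DKO. HNRNPA1 led in both libraries, with an FPKM of 1438 in control and 1833 in Akt1/2 DKO, followed by HNRNPA2B1 (718 and 870), HNRNPC (680 and 699) and HNRNPK (448 and 430). At the lower end stood U2AF1L4 (5.83 and 6.51), HNRNPA1L2 (4.98 and 5.52) and SRSF12 (0.91 and 0.26). HNRNPCL1, HNRNPCL2, HNRNPCL3 and HNRNPCL4, close relatives of HNRNPC, had 0 reads in both libraries. This allows up to 3 reads each, or 0.301 CPM in control and 0.28 CPM in Akt1/2 DKO. Between 53.9% (HNRNPCL2) and 94.0% (HNRNPCL4) of the 50-base words in their transcripts occur in other genes, so this bound covers assigned reads only.

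**Figure D1:**
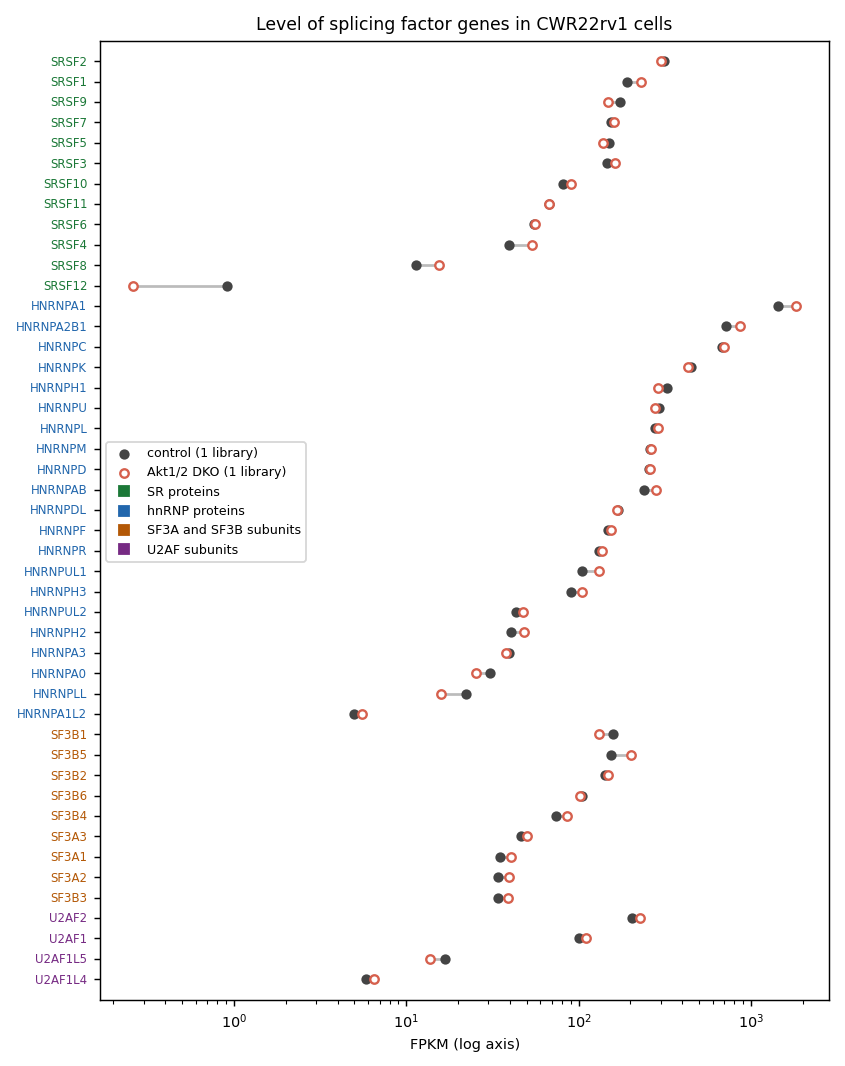
FPKM (log axis) of the 46 genes with at least 10 reads, filled points for the control library and open points for the Akt1/2 DKO library, 1 library each, grouped by class. The points of a gene nearly coincide over levels from 4.98 (HNRNPA1L2, control) to 1833 (HNRNPA1, Akt1/2 DKO), except for SRSF12, which goes from 0.91 to 0.26.

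Of the 50 genes, 46 passed the filter of 10 reads, and SRSF12 was the only 1 of them (2.17%) past 1.5-fold, where 30.9% of all 13318 genes tested were (15.9% higher and 15% lower). Well-measured genes pass less often, so the 41 splicing factors with 1000 reads or more were also set beside all genes with that minimum. Depth was not matched, since the median was 5574 reads over the 41 and 2001.5 over all genes with that minimum. Of these 41, 0 passed 1.5-fold, and the share over all 4928 genes with that many reads was 15.1%. The median log2 fold change was 0.045 over the 46 genes and 0.006 over all genes tested, and the quartiles were -0.10 and 0.18 for the 46, against -0.32 and 0.33 for all genes tested. At 1000 reads or more, the quartiles were -0.04 and 0.18 for the splicing factors and -0.25 and 0.19 for all genes. In RNA from a whole culture, fewer cells that make an mRNA and less of it per cell cannot be told apart.

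**Figure D2:**
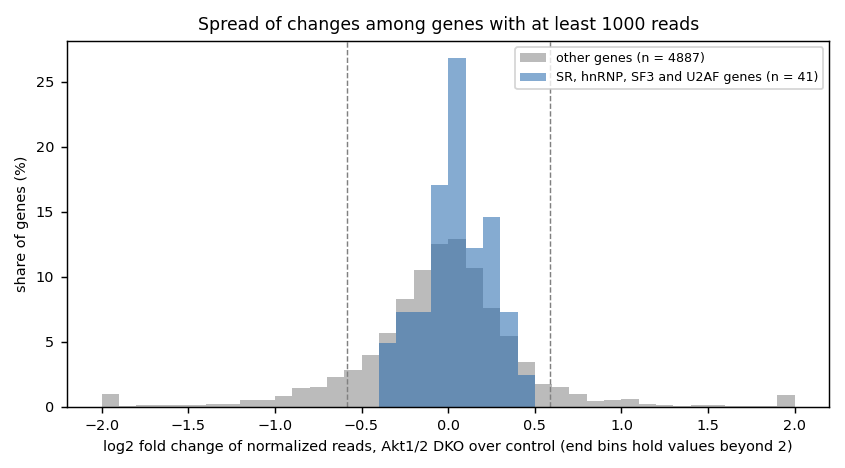
Log2 fold change of normalized reads, Akt1/2 DKO over control, for genes with 1000 reads or more over both libraries, as a share of 41 splicing factor genes (blue) and of 4887 other genes (grey), with dashed lines at 1.5-fold. All 41 lie between -0.33 and 0.41, inside the lines, while the other genes reach past the lines on both sides.

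Differences below 1.5-fold were still larger than counting error for many genes, since the reads are many. The 95% interval lay above no change for 16 of the 46 genes (34.8%, against 29.8% of all genes tested) and below it for 12 (26.1%, against 29.4%), and for 18 it included no change. With library sizes scaled by total reads, 25 (54.3%) lay above and 11 (23.9%) below, against 33.1% and 26.3% of all genes tested, so the counts of the smaller differences hang on the scaling. Over TMM, total reads, DESeq2 size factors, upper quartiles and FPKM, 40 genes kept their sign, 27 higher and 13 lower in Akt1/2 DKO. HNRNPL, HNRNPU, SF3B2, SRSF6, SRSF7 and U2AF1L4 did not. The share of all genes that kept their sign was not computed. Some kept signs rest on values near no change, such as a lowest log2 fold change of 0.004 for HNRNPC. Total reads, upper quartiles and FPKM also raised the median of all genes (0.051, 0.059 and 0.036, against 0.006 with TMM). A 1.2-fold limit, chosen after the data were seen, was passed by 13 of 46 genes, 6 higher and 7 lower, where 57.5% of all genes tested passed it. At 1000 reads or more, 9 of 41 (22%) passed 1.2-fold, against 42.6% of all.

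**Figure D3:**
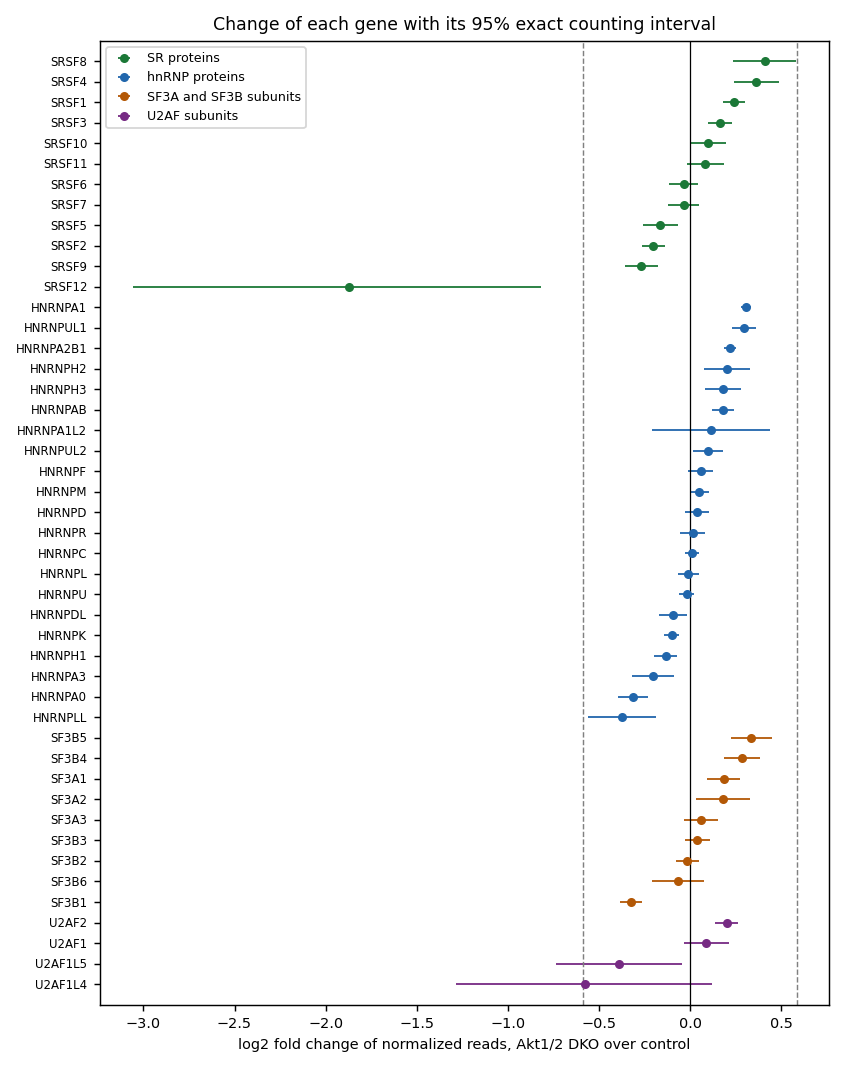
Log2 fold change of normalized reads, Akt1/2 DKO over control, of each of the 46 genes with its 95% exact counting interval, by class, with dashed lines at 1.5-fold. SRSF12 alone lies outside the lines, and U2AF1L4 touches the lower line with an interval that includes no change.

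Among the SR proteins, SRSF12 was the gene that differed past 1.5-fold. SRSF12 encodes an SR protein that has been described as a repressor of splicing and is scarce in most tissues. Its reads went from 33 in control cells to 10 in Akt1/2 DKO cells, which is -1.87 on the log2 scale or 3.66-fold lower (95% interval 1.76 to 8.32). With 43 reads in all, it is among the least measured of these genes, and it was lower in FPKM too (0.91 and 0.26). The gene lies on chromosome 6 from 89095959 to 89118081 (GENCODE release 29, GRCh38), and no other gene overlaps its exons.

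The other 11 SR protein genes stayed within 1.5-fold. SRSF8 came nearest to the limit on the higher side, with 460 reads in control and 677 in Akt1/2 DKO, 1.33-fold higher (95% interval 1.18 to 1.5), and it was also the scarcest of the 11 in FPKM (11.4 and 15.6). SRSF4, which carries a long RS domain, had 906 and 1292 reads, 1.29-fold higher (1.18 to 1.40). SRSF1, the founding member of the family, had 3871 and 5077 reads, a log2 fold change of 0.24 (95% interval 0.18 to 0.30). SRSF3, the smallest SR protein, had 3253 and 4037 reads (0.16). These 4 genes had intervals above no change.

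SRSF9, SRSF2, SRSF5 and SRSF12 made up the SR genes with intervals below no change. SRSF9, a close relative of SRSF1, had 2049 reads in control and 1886 in Akt1/2 DKO, a log2 fold change of -0.27 (95% interval -0.36 to -0.18), and so SRSF1 and SRSF9 lay on opposite sides of no change. SRSF2, which binds exonic enhancers and is recurrently mutated in myeloid neoplasms, was the most abundant SR mRNA on the FPKM scale (312 and 300.0) and had 4356 and 4200 reads (-0.20). SRSF5 had 1719 and 1703 reads (-0.16). SRSF7 and SRSF6, with log2 fold changes of -0.04 each, and SRSF10 and SRSF11, with 0.10 and 0.08, had intervals that included no change. Exons of other genes overlap 46.2% of the exonic bases of SRSF9 (GATC, opposite strand), 36.7% of those of SRSF2 (MFSD11, opposite strand, and MIR636) and 60.7% of those of SRSF1, and the sources used here do not say whether the counting used strand.

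Among the hnRNP proteins, 0 of the 21 genes with at least 10 reads passed 1.5-fold, and the median log2 fold change was 0.04. The share past 1.5-fold was 30.9% over all genes tested and 15.1% over those with at least 1000 reads. HNRNPA1, which shuttles mRNA and represses splice sites, showed the largest positive difference of the class, with 15390 reads in control and 21106 in Akt1/2 DKO, 1.24-fold higher (95% interval 1.21 to 1.26). It made up 0.154% of all reads in control and 0.197% in Akt1/2 DKO. HNRNPA2B1, its paralog, had 12952 and 16698 reads, 1.16-fold higher (1.14 to 1.19). HNRNPUL1, a relative of HNRNPU, had 3258 and 4440 reads, 1.23-fold higher (1.17 to 1.29). HNRNPA1 and HNRNPA2B1 are the most abundant genes of the set, and both lay above no change by more than their counting error.

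The A/B type hnRNP genes did not move together. HNRNPA0 had 2675 reads in control and 2388 in Akt1/2 DKO, a log2 fold change of -0.31 (95% interval -0.39 to -0.23), and HNRNPA3 had 1232 and 1185 reads (-0.20, interval -0.32 to -0.09), both below no change. HNRNPAB had 4255 and 5346 reads and lay above it (0.18, interval 0.12 to 0.24). HNRNPLL, known for directing CD45 splicing in lymphocytes, had the largest negative difference of the class, with 511 and 437 reads, 1.3-fold lower (1.14 to 1.48). Its paralog HNRNPL, a binder of CA-rich elements, had 4626 and 5095 reads (-0.01, interval -0.07 to 0.05).

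The abundant general hnRNP genes lay near no change. HNRNPC, which guards against the inclusion of Alu-derived exons, had 10355 reads in control and 11548 in Akt1/2 DKO (log2 fold change 0.01, interval -0.03 to 0.05). HNRNPU, which binds nuclear matrix and chromatin RNA, had 9138 and 10011 reads (-0.02), HNRNPM 5536 and 6357 (0.05) and HNRNPK, which binds C-rich sequence, 9303 and 9613 (-0.10, interval -0.14 to -0.06). HNRNPM, HNRNPD, HNRNPF and HNRNPR, like HNRNPC and HNRNPU, had intervals that included no change. HNRNPDL, a paralog of HNRNPD, had 2735 and 2839 reads and lay below it (-0.10, interval -0.17 to -0.02). Of the G-rich binders, HNRNPH1 had a log2 fold change of -0.13 while HNRNPH2 had 0.20 and HNRNPH3 had 0.18, and the ratio of HNRNPH1 to HNRNPH2 in FPKM was 7.98 in control and 5.98 in Akt1/2 DKO.

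The SF3A and SF3B proteins anchor the U2 snRNP at the branch point, and 0 of their 9 genes passed 1.5-fold. Of all genes with at least 1000 reads 15.1% did. The median log2 fold change of the 9 was 0.06 in reads and 0.2 in FPKM. Within the SF3B complex the genes spread in both directions. SF3B1, the largest subunit and a frequent site of mutation in blood and eye cancers, had 4474 reads in control and 3961 in Akt1/2 DKO, a log2 fold change of -0.32 (95% interval -0.39 to -0.26). SF3B5, a small subunit, had 1076 and 1506 reads (0.34, interval 0.22 to 0.45), and SF3B4, which contacts RNA near the branch point, had 1423 and 1920 (0.28, interval 0.18 to 0.38). SF3B1 had the highest FPKM of the class in control (158) and was below SF3B5 and SF3B2 in Akt1/2 DKO (131, 201 and 148).

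The other SF3 genes differed less. SF3B3, the lowest of the class in FPKM (33.9 and 39.2), had 3262 reads in control and 3719 in Akt1/2 DKO, with a log2 fold change of 0.04. SF3B2 (-0.01) and SF3B6 (-0.07), a small protein at the branch point adenosine, had intervals that included no change. Of the SF3A genes, SF3A1 had 1796 and 2262 reads (0.18, interval 0.09 to 0.27), SF3A2 had 671 and 842 (0.18, interval 0.03 to 0.33) and SF3A3 had 1720 and 1987 (0.06, interval -0.03 to 0.15). All 3 SF3A values were positive, and SF3B1 was the only SF3 gene whose interval lay below no change.

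U2AF is a heterodimer whose large subunit, U2AF2, binds the polypyrimidine tract and whose small subunit, U2AF1, reads the AG at the intron end. U2AF2 had 3653 reads in control and 4655 in Akt1/2 DKO, 1.15-fold higher (95% interval 1.1 to 1.2), and an FPKM of 205 and 228. U2AF1 had 972 and 1147 reads, with a log2 fold change of 0.09 (interval -0.03 to 0.21). The ratio of U2AF1 to U2AF2 in FPKM was 0.49 in control and 0.48 in Akt1/2 DKO, a ratio that rests on how reads were split between U2AF1 and its near copy.

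U2AF1L5 lies on chromosome 21 from 6484623 to 6499261 and is a near copy of U2AF1, which lies from 43092956 to 43107587. Of the 50-base words in U2AF1 transcripts, 94.3% occur in another gene, U2AF1L5 first, so the split of reads between them is uncertain. U2AF1L5 was given 156 reads in control and 132 in Akt1/2 DKO. Summed over both genes there were 1128 and 1279 reads, a log2 fold change of 0.03 (interval -0.08 to 0.15), smaller than that of either gene. U2AF1L4, a paralog that can take the place of U2AF1, had 43 and 32 reads, a log2 fold change of -0.58 (interval -1.28 to 0.12). At 1.49-fold lower it was the gene just inside the limit, SRSF12 at 3.66-fold lower was the gene just outside it, and SRSF8 at 1.33-fold higher came next.

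Shared sequence also touches other members. Of the 50-base words in HNRNPA1 transcripts, 22.8% occur in transcripts of 57 other genes, the pseudogene HNRNPA1P48 among them, and for HNRNPA1L2 the share was 58.5%. HNRNPA1 and HNRNPA1L2 together had 15540 reads in control and 21286 in Akt1/2 DKO, a log2 fold change of 0.31, the value of HNRNPA1 alone. SRSF1 shared 50.8% of its words with AC015813.2 and HNRNPUL2 shared 43.2% with the readthrough gene HNRNPUL2-BSCL2, so their read counts are uncertain in the same way. The shares were 18.9% for U2AF1L4, 16.5% for HNRNPA3, 15% for HNRNPH2 and 11.2% for HNRNPL. The estimated reads were not whole numbers in 10 of the 50 genes, among them HNRNPA1, HNRNPL, SRSF2 and U2AF1.

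Reads and FPKM gave the same picture for nearly every gene. In both, 46 of 46 genes fell on the same side of 1.5-fold, SRSF12 again alone past it, where 31.9% of all genes tested passed 1.5-fold in FPKM. For the 41 genes with at least 1000 reads, the log2 fold change of FPKM minus that of normalized reads had a median of 0.04 and lay between -0.08 and 0.17, and 0 differed by more than 0.2, where 6.49% of all genes with that many reads did. The largest gaps were those of SF3B3 (0.17), HNRNPA3 (0.14) and SRSF2 (0.14). U2AF1L4 stood apart among the scarcer genes, since its reads went from 43 to 32 while its FPKM went from 5.83 to 6.51. Its 21 annotated transcripts run from 263 to 2582 bases, and 30.3% of its exonic bases are overlapped by AD000671.2 or PSENEN. FPKM depends on the transcript lengths assumed, whose part in the gap was not tested.

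**Figure D4:**
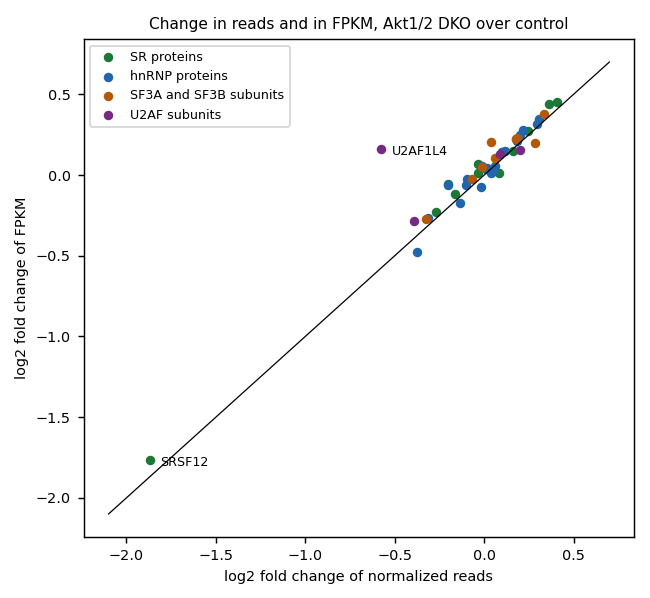
Log2 fold change of FPKM against log2 fold change of normalized reads, Akt1/2 DKO over control, 1 point for each of the 46 genes, with the line of equal values. The points follow the line, apart from U2AF1L4, at -0.58 in reads and 0.16 in FPKM.

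The genes lie on 19 chromosomes, with 0 on chromosome 3. Many splicing factor genes limit their own mRNA through exons that expose it to nonsense-mediated decay. In GENCODE release 29, 32 of the 46 genes (69.6%) have an annotated transcript of that type, against 42.1% of the 13288 protein-coding genes tested, and 33 (71.7%) have a retained-intron transcript, against 56.1%. The median was 10 transcripts per gene, against 7. The table gives 1 value per gene, so a change in the share of such transcripts was not tested. The factors of the decay pathway and the exon junction complex gave 0 of 15 genes past 1.5-fold, with a median log2 fold change of 0.08. The share past 1.5-fold was 30.9% over all genes tested and 15.1% over those with at least 1000 reads.

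In most of the rest of the splicing machinery, passing 1.5-fold was also less common than over all genes tested (30.9%). Depth was not matched, since the median over the related lists together was 1931.5 reads, against 637 over all genes tested. Of all genes with at least 1000 reads 15.1% passed, beside 14 of 132 (10.6%) over the lists together. Lists of 8 or 9 genes are too short to tell 0 or 1 from that share. The lists were written from general knowledge, but with earlier results of these data known. In some of them the share was above the 2.17% of the 46 genes. Of the SR-related proteins 0 of 17 passed 1.5-fold, of the hnRNP proteins under other symbols (PTBP1, PCBP2 and others) 0 of 9, of the Sm core proteins 0 of 8 and of the other U2 snRNP and branch point proteins 0 of 15. In the U1 snRNP list 1 of 9 did, PRPF40B, with 258 reads in control and 170 in Akt1/2 DKO, 1.68-fold lower (95% interval 1.38 to 2.05), though within 1.5-fold in FPKM (8.57 and 5.9). Among tri-snRNP, PRP19 complex and catalytic step proteins 2 of 23 did. PLRG1, a PRP19 complex protein, had 521 and 909 reads, 1.57-fold higher (1.41 to 1.76), and PRPF8, the core of the catalytic centre, had 6158 and 10241, 1.5-fold higher (1.45 to 1.55), which is the limit itself and falls short of it with DESeq2 size factors or with no filter on reads. In the minor spliceosome list 1 of 8 did, ZRSR2, which reads the intron end in U12-type introns, with 37 and 82 reads, 2.00-fold higher (1.34 to 3.03).

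Of the 10 kinases that act on SR proteins, 1 passed 1.5-fold (10%, against 30.9% of all genes tested). Their median was 1081 reads, and 15.1% of all genes with at least 1000 reads passed. SRPK3, a muscle-restricted kinase named here after its values were seen because it has under 100 reads, had 46 reads in control and 12 in Akt1/2 DKO, 4.25-fold lower (95% interval 2.22 to 8.81). SRPK1 had 1327 and 1606 reads, a log2 fold change of 0.13, and SRPK2 had 920 and 735 reads (-0.47, interval -0.62 to -0.33). SRPK1 and SRPK2, the kinases that license SR proteins for entry into the nucleus, thus lay on opposite sides of no change. CLK1, a nuclear SR kinase, had 456 and 447 reads (-0.18, interval -0.37 to 0.01). The median log2 fold change of the 10 kinases was -0.24, against 0.006 over all genes tested, with 7 negative and 3 positive. In FPKM, 2 of the 10 passed 1.5-fold, both lower, where 31.9% of all genes tested passed it either way.

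The splicing regulators restricted to some cell types differed more often. Of 27 listed genes 18 had at least 10 reads, and 9 of these (50%) passed 1.5-fold, 7 higher and 2 lower in Akt1/2 DKO, against 30.9% of all genes tested. CELF4, a neuronal RNA-binding protein, had 2 reads in control and 267 in Akt1/2 DKO, 120-fold higher with a counting interval from 33.0 to 999. KHDRBS2, a neuronal relative of SAM68, had 3 and 119 reads, 35.8-fold higher (interval 11.95 to 176). ELAVL2, a neuronal Hu protein, had 46 and 229 reads, 4.49-fold higher (3.26 to 6.31), and MBNL2, which promotes adult splicing patterns, had 49 and 235, 4.33-fold higher (3.17 to 6.01). These 4 genes had at most 49 reads in control. CELF4 and KHDRBS2 were at or under the floor of 3 reads there. Both passed the filter only through their Akt1/2 DKO reads, so the filter itself fixed their place among the 7 higher. A filter of at least 10 reads in each library leaves both out, and the share of the list under it was not computed. A prior count of 1 lowers the log2 fold change of CELF4 from 6.91 to 6.33.

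Other genes of this list were more abundant or went the other way. CELF3, another neuronal CELF protein, had 435 reads in control and 116 in Akt1/2 DKO, 4.16-fold lower (95% interval 3.38 to 5.15), and so CELF3 and CELF4 differed in opposite directions. SRRM4, which drives neural microexons and has been tied to neuroendocrine CaP, had 1732 and 3959 reads, 2.06-fold higher (1.95 to 2.18). Of the 3 neuroendocrine markers, CHGA had 340 and 2 reads, SYP 752 and 998 and INSM1 0 in both, with summed FPKM of 51.5 in control and 42.3 in Akt1/2 DKO, and their part in the SRRM4 value was not tested. The epithelial regulators split as well, with ESRP2 at 872 and 1482 reads, 1.53-fold higher (1.41 to 1.67), and ESRP1 at 1047 and 1028, a log2 fold change of -0.18.

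**Figure D5:**
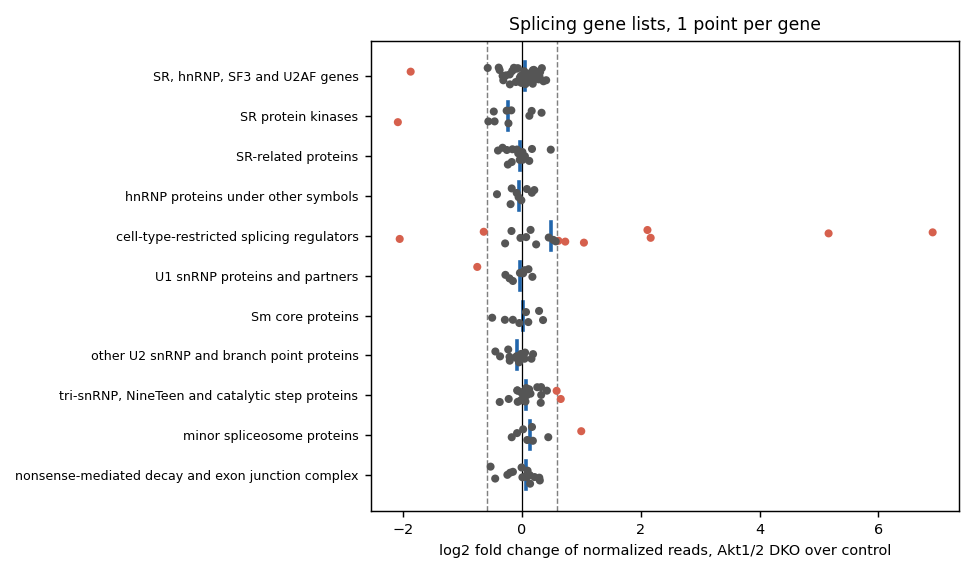
Log2 fold change of normalized reads, Akt1/2 DKO over control, 1 point per gene with at least 10 reads, for the 46 SR, hnRNP, SF3 and U2AF genes and 10 lists of related genes, with blue bars at the medians, dashed lines at 1.5-fold and red points at or past them. The lists of general splicing factors cluster at no change, and the cell-type-restricted regulators spread from -2.06 (CELF3) to 6.91 (CELF4).

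The authors' pathway annotation, which shares genes with these lists, puts 30 of the 50 genes in the spliceosome pathway, and 102 other genes with them. Of those 102, 99 had at least 10 reads and 9 (9.09%) passed 1.5-fold, 6 higher and 3 lower in Akt1/2 DKO, against 30.9% of all genes tested. The median of the 99 was 1906 reads, and 15.1% of all genes with at least 1000 reads passed. HSPA1A, HSPA2 and HSPA1L, heat shock proteins that the annotation lists there and that were named after their values were seen, made up 3 of the 6 that were higher. HSPA1A had 119 reads in control and 438 in Akt1/2 DKO, and HSPA2 had 113 and 280. HSPA1L had only 12 and 20, a log2 fold change of 0.588 with an interval (-0.515 to 1.754) that included no change.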

How the data were processed

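RNA from 1 library of Akt1/2 DKO and 1 of control CWR22rv1 cells was analysed. Per gene, the files deposited by the authors hold estimated counts that were not normalized, and FPKM values for the same libraries. The submitters' processing notes name fastp 0.20.0, TopHat, Cufflinks and edgeR with the build GRCh38.p10. The counting tool is not given in the sources used here. The authors' comparison tables (log2 fold changes, p-values, FDR, changed genes by ontology class) and their correlation were not used.

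Rounding turned estimated counts into whole reads. A minimum of 10 reads over both libraries kept 13318 genes, and TMM in edgeR 4.0.16 (R 4.3.3) set the library size ratio, Akt1/2 DKO to control, at 1.11. With 1 library per condition no p-value was computed. Intervals (scipy 1.17.1) cover counting error only, and the floor is 3 reads. FPKM fold changes are of log2(FPKM + 0.01). The steps were tested on simulated data. The members and lists were chosen with earlier results of these data known. The rule for named genes took members past 1.5-fold with at least 100 reads, those highest and lowest in FPKM in each class, those nearest the limit, the up to 4 genes per related list with the largest fold among those with at least 100 reads and past 1.5-fold, AKT1 and AKT2. The other members, and SRPK1, SRPK2, SRPK3, CLK1, CELF3, SRRM4, ESRP1 and ESRP2, fall outside it and were named after their values were seen. Alternatives were 3 scalings, FPKM, 3 read filters, a prior count of 1, a 2-fold limit and a call that also needs the interval. Loci and transcripts come from GENCODE release 29 (GRCh38), which holds all 50 identifiers. Some genes of the lists are not reported here by name.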

Additional observations from a re-analysis of the deposited data

How the results depend on the processing

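The count of splicing factor genes past 1.5-fold was 1 (SRSF12) under TMM, total counts, DESeq2 size factors, upper quartiles, FPKM, no filter, at least 10 reads in each library, a prior count of 1, a 2-fold limit and a call that also needs the interval. With a minimum of 50 reads over both libraries it was 0, with 0 lower, because SRSF12 has 43 reads. A 1.2-fold limit, chosen after seeing the data, gave 13 genes, 6 higher and 7 lower. Folds centred on the median of genes with at least 1000 reads, also chosen after seeing the data, left the count at 1. The median log2 fold change of the genes lay between 0.041 and 0.098 over the scalings, filters and FPKM. Upper-quartile and total count scaling moved the median of all genes to 0.059 and 0.051. With upper-quartile scaling, intervals lay above no change for 25 genes (54.3%, against 33.8% of all genes tested) and below it for 10 (21.7%, against 25.7%). Of 515 values of single genes under the alternatives, 491 stayed within their counting interval, 24 moved past it and 0 of the called ones changed sign. The 24 came from FPKM (12), upper quartiles (7) and total counts (5), and the other settings barely shift the folds. Only genes past 1.5-fold were checked for a change of sign, which leaves out the 6 members whose sign flipped. Few reads limit SRSF12 and U2AF1L4. No paired analysis was possible because there is a single library on either side.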

Other observations

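In the other RNA pathways examined in the authors' annotation, more genes passed 1.5-fold than among the splicing factors. Their shares were below that over all genes tested (30.9%), but depth was not matched. The median was 2199 reads in RNA transport, 1714.5 in mRNA surveillance and 1350.5 in RNA degradation, against 637 over all genes tested. Of all genes with at least 1000 reads 15.1% passed, so RNA degradation lay above that share and the others below it. In RNA transport, 20 of 154 genes outside the set (13.0%) passed 1.5-fold, 13 higher and 7 lower in Akt1/2 DKO. In mRNA surveillance 9 of 84 (10.7%) did, 4 higher and 5 lower, and in RNA degradation 14 of 74 (18.9%), 6 higher and 8 lower. The median log2 fold changes were 0.03, -0.003 and 0.01.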
